A study of Mus musculus with 17 samples.

Results

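Metallothioneins and the proteins that move zinc across membranes set how much free zinc a cell holds. Here 8 genes of that system were followed in the lungs of mice given endotoxin. They were the metallothionein genes *Mt1*, *Mt2* and *Mt3*, the metal-sensing transcription factor gene *Mtf1*, the zinc importer genes *Slc39a14* and *Slc39a8*, and the zinc exporter genes *Slc30a1* and *Slc30a4*. They were chosen by gene name, with earlier results of these data known. They are 8 of the 12393 genes that a probe set of the array names alone. They were read by 12 of 22626 probe sets, with a pair of probe sets each for *Mt1*, *Mtf1*, *Slc39a14* and *Slc39a8* and 1 for each of the others. A gene with a pair was led by the probe set with the higher mean over all arrays, those of LPS mice included.

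The animals were male wild-type mice (C57BL/6J) and male NOS2-/- mice, which lack the inducible nitric oxide synthase. Both came from 1 vendor, and the labels give no strain for the NOS2-/- mice. Each mouse received normal saline or lipopolysaccharide (LPS) of *Escherichia coli* O111:B4 at 20 mg/kg into a vein, and RNA of the lung was measured on 1 Affymetrix MOE430A array per mouse. There were 4 wild-type mice given saline and 1 NOS2-/- mouse given saline, all 5 taken at 22 h. The LPS groups held 3 mice of each genotype at 7 h and 3 of each at 22 h. The 7 h responses were thus measured against saline mice studied at 22 h, so that treatment and time after injection cannot be told apart in them. Values are the log2 signals deposited by the authors. A probe set was called when the limma test across the array gave a Benjamini-Hochberg adjusted p under 0.05.

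Metallothioneins are small cysteine-rich proteins that bind zinc and copper. Their genes are classic targets of metals, glucocorticoids and inflammatory cytokines, and Mtf1 switches them on by binding metal response elements in their promoters when free zinc rises. Proteins of the Slc39 (ZIP) family bring zinc into the cytosol, and those of the Slc30 (ZnT) family carry it out of the cell or into vesicles. In the acute-phase response zinc moves from plasma into tissues, which in mouse liver depends on Slc39a14.

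Before the results, some features of the arrays bear on how they can be read. The saline NOS2-/- mouse stood apart. Its summed linear signal over 11 of 12 squamous epithelium markers was 31869, against 2729 to 3438 in the other 16 mice, and that over 11 of 11 skeletal muscle markers was 17007, against 1899 to 3146. Its sums over 8 of 8 cardiac muscle markers (32658, against 6969 to 16338), 5 of 7 adipose tissue markers (4287, against at most 2690) and 8 of 9 liver markers (4306, against at most 3809) were also the highest of the 17 mice. *Krt4*, a keratin of squamous epithelium, had a log2 signal of 14.21 in this mouse and at most 8.72 elsewhere. Replicate 2 of the wild-type mice 22 h after LPS correlated with replicates 1 and 3 at 0.955 and 0.949, and every other pair of mice within a group at 0.992 or more. The lung markers *Sftpc* of alveolar type 2 cells (14.17 or more) and *Pecam1* of endothelium (9.93 or more) were present on all arrays, and the liver marker *Alb* had a signal between 7.76 and 8.27. The *Nos2* probe set was not lower in NOS2-/- mice. It lay between 8.85 and 9.25 in their LPS groups and between 8.19 and 9.06 in the wild-type LPS groups. The sources used here do not say whether this probe set lies inside the deleted part, so it does not check the genotype labels.

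Cores of the metal response element were searched in the RefSeq promoter windows of 7 members. *Slc39a14* had no window. Shown are 4 of them, those of *Mt1* and *Mt2*, which were called higher after LPS in both genotypes, and of *Mt3* and *Slc30a1*, which were not called in wild-type mice. Each is the 300-base window from 250 bases before to 50 bases after the start, from RefSeq on build GRCm38.p6, and capitals mark matches to the core of the metal response element on either strand (TGCACNC and TGCGCNC).
Mt1 (chr8:94178839-94179138, plus strand): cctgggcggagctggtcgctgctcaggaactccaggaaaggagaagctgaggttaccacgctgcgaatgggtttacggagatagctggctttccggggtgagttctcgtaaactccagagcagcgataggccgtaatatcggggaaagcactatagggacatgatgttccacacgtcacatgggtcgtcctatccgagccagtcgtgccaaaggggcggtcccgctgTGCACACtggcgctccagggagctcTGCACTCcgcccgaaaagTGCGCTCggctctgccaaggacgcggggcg
Mt2 (chr8:94172368-94172667, plus strand): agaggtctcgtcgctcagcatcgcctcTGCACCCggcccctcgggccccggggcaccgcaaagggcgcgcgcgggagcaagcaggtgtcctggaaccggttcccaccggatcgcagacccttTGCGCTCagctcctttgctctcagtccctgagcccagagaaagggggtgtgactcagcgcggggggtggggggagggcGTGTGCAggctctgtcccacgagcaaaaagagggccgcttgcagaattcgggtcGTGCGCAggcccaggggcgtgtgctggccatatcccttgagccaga
Mt3 (chr8:94152357-94152656, plus strand): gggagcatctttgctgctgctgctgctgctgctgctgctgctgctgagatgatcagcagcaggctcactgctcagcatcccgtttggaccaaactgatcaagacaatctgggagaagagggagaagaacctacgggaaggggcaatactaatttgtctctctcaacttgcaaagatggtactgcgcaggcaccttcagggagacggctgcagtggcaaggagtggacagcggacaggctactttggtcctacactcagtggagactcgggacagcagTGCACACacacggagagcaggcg
Slc30a1 (chr1:191906531-191906830, plus strand): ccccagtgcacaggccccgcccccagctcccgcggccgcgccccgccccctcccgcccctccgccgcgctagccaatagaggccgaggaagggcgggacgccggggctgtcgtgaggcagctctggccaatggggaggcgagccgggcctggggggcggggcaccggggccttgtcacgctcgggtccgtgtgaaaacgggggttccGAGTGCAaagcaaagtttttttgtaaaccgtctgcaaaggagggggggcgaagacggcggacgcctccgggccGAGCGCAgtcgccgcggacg

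The *Mt1* window held 3 matches and the *Mt2* window 4. The *Mt1* matches began 23 bases before the annotated start (position -23) and at positions 3 and 21 after it, all on the gene's own strand. Those of *Mt2* began at positions -223, -128, -50 and 5, and the last of these and the one at -50 were on the opposite strand. *Mt3* held 1 match, at position 28, and *Slc30a1* held 2, at -43 and 31. *Slc30a4* on chromosome 2 held 3 and *Mtf1* on chromosome 4 none. *Slc39a8* on chromosome 3 has a pair of windows in the table, of which 1 held 1 match and the other none. No 2 matches shared a base. Of 32851 windows of the table, 25.7% held at least 1 match, 7.11% at least 2, 1.97% at least 3 and 0.517% at least 4. The STAT element TTCNNNGAA, searched on both strands, was in none of the 8 windows of the 7 members matched and in 8.3% of all windows. These are matches of letters and were not tested for binding, and sequence outside the windows was not searched. The 3 metallothionein genes lie side by side on chromosome 8. The table's start of *Mt2* is 20011 bases from that of *Mt3*, and that of *Mt1* a further 6471 bases on.

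**Figure D1:**
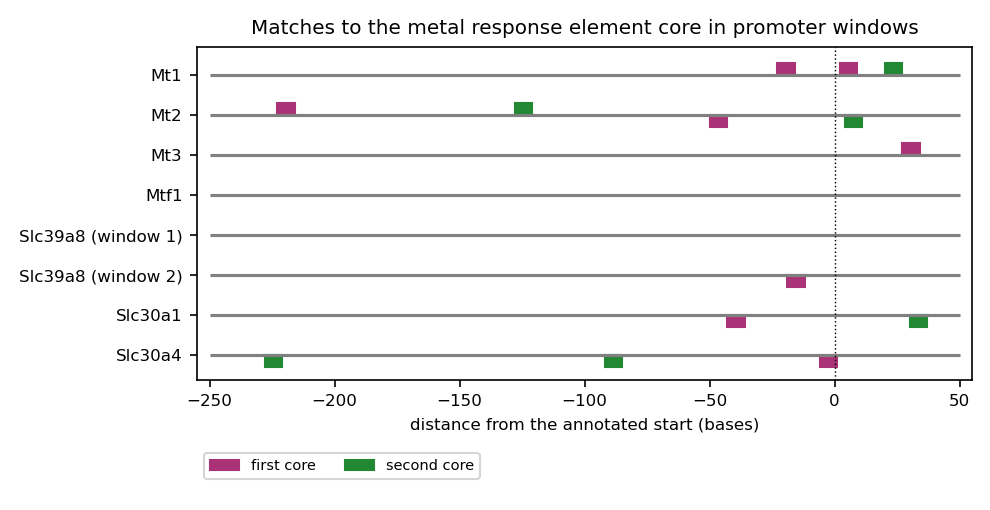
Matches to the core of the metal response element in the RefSeq promoter windows (grey lines, build GRCm38.p6) of 7 members, by distance from the annotated start in bases. Boxes above a line are matches on the gene's strand and boxes below it on the other strand, in purple for TGCACNC and green for TGCGCNC. *Mt2* held 4 matches, *Mt1* and *Slc30a4* 3 each, and *Mtf1* none.

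In wild-type lungs, LPS raised *Mt1*, *Mt2*, *Slc39a14*, *Slc39a8* and *Slc30a4*. *Mt2* rose 18.1-fold at 7 h and, by their leading probe sets, *Mt1* 9.07-fold and *Slc39a14* 8.26-fold. *Mt3* and *Slc30a1* did not pass the test at either time. At 7 h, 8 of the 12 probe sets were called higher and 0 lower, where 32.3% of all probe sets were called, 14.4% higher and 17.9% lower. At 22 h, 9 were called higher and 0 lower, against 32.8% of all probe sets, 12.8% higher and 20.0% lower. In whole lung, a change in the number of cells of a type and a change in RNA per cell cannot be told apart. The median log2 fold change over the 12 was 1.05 at 7 h and 1.06 at 22 h, beside -0.05 and 0.00 over all probe sets. Both responses share the 4 saline mice, so they are not independent of each other.

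*Mt2* rose at both times. In the 4 wild-type saline mice its log2 signal was 10.43, 10.65, 10.29 and 10.42. In the wild-type mice it was 14.63, 14.66 and 14.59 at 7 h after LPS and 14.50, 14.29 and 14.49 at 22 h. Every LPS value lay far above every saline value. At 7 h the difference was 4.18 log2 units (standard error 0.08, limma adjusted p = 3.56e-14). At 22 h it was 3.98 (standard error 0.08, adjusted p = 7.25e-14), a 15.8-fold rise. These values, like those of the leading *Mt1* probe set after LPS, lay near the top of the scale, whose highest value on any array was 15.2.

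*Mt1* rose at both times too. Its leading probe set (1422557_s_at) had signals of 10.81, 11.26, 11.19 and 10.99 in the wild-type saline mice. After LPS the values were 14.25, 14.27 and 14.21 at 7 h and 14.25, 14.03 and 14.22 at 22 h. The groups were far apart, and the mice of each LPS group lay close together, with an SD of 0.03 at 7 h and 0.12 at 22 h. The difference was 3.18 log2 units (standard error 0.09, limma adjusted p = 1.42e-12) at 7 h and 3.11 (8.61-fold, adjusted p = 3.15e-12) at 22 h. The other probe set (1451612_at) gave signals between 7.25 and 7.83 in saline mice and between 9.03 and 9.77 after LPS. It rose less, 4.42-fold at 7 h and 3.26-fold at 22 h, so the size of the *Mt1* rise depends on the probe set while its direction does not.

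*Mt3*, a metallothionein best known from brain, was not called. Its signal was 7.72 ± 0.04 (SD, n = 4) in wild-type saline mice, 7.65 ± 0.07 (SD, n = 3) at 7 h and 7.65 ± 0.12 (SD, n = 3) at 22 h. The log2 differences from saline were -0.07 and -0.06, each with a standard error of 0.07. *Mt4*, a metallothionein of stratified squamous epithelia that is no member, was at 7.15 ± 0.05 (SD, n = 4) in wild-type saline mice and between means of 7.18 and 7.26 in all LPS groups. In the saline NOS2-/- mouse it was 10.82, in the same array that held the squamous epithelium markers.

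The probe sets of *Mtf1* differed from each other. The leading one (1418333_at) lay between 8.36 and 8.92 in all 17 mice and was the only one of the 12 that did not pass the F test over the 6 groups (limma adjusted p = 0.0636). That test called 11 of the 12 and 48.0% of all probe sets. The other (1429170_a_at) was at 7.64, 7.37, 7.44 and 7.45 in wild-type saline mice, 7.52, 7.72 and 7.73 at 7 h and 8.02, 7.70 and 8.02 at 22 h. The saline and 22 h values did not overlap, and the rise at 22 h was 1.35-fold (0.44 log2 units with a standard error of 0.10, limma adjusted p = 0.00278). This probe set lay below the median of every array, at group median percentiles from 26.1 to 46.5, and no detection call was used here.

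**Figure D2:**
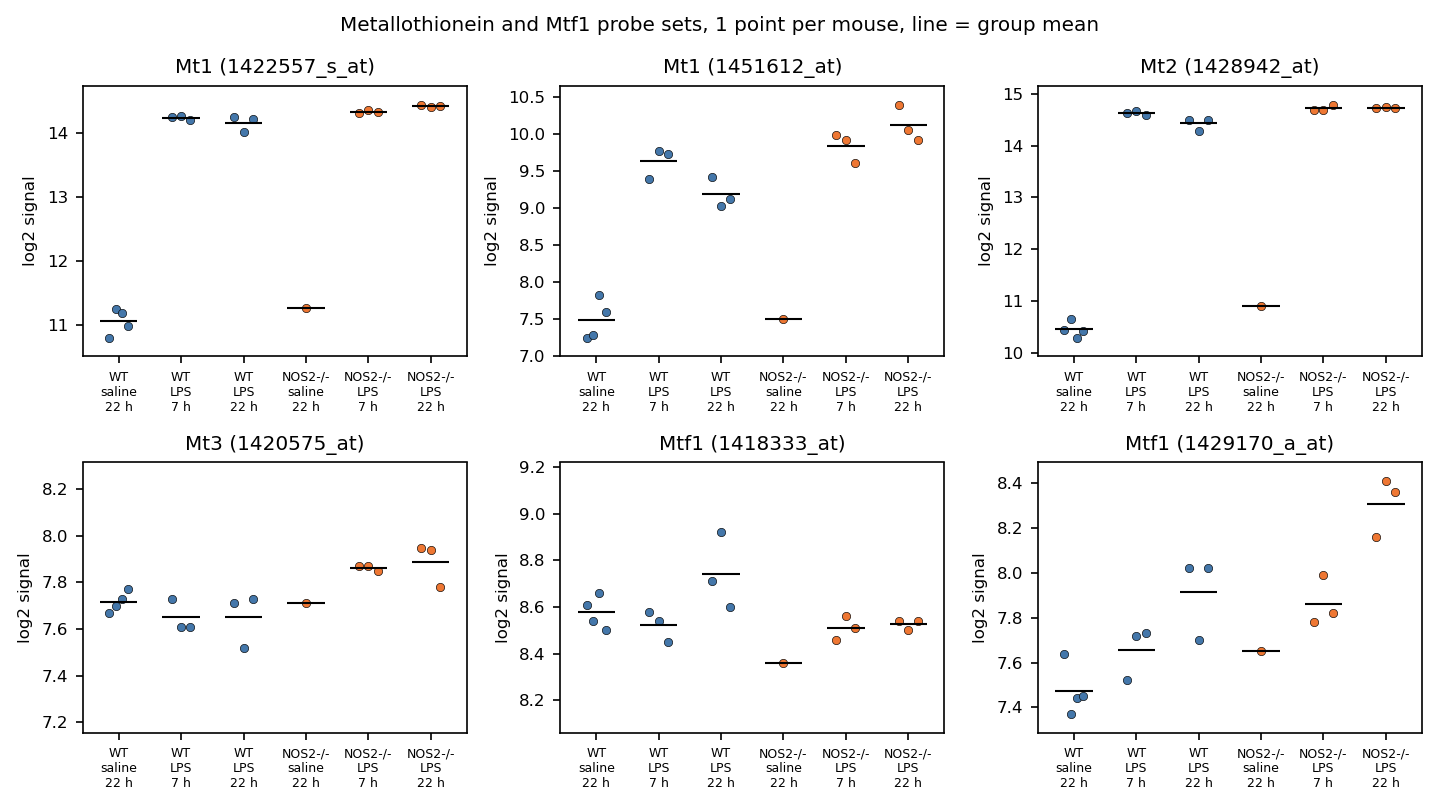
Log2 signal (y axis) of the 6 probe sets of *Mt1*, *Mt2*, *Mt3* and *Mtf1* in each of the 17 mice, by group (x axis; blue, wild-type; orange, NOS2-/-), with lines at the group means and a y range of its own for each panel. *Mt1* and *Mt2* were high in all 12 LPS mice, while *Mt3* stayed between 7.52 and 7.95.

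Among the transporters, the importer *Slc39a14* (ZIP14), which carries zinc, iron and manganese, moved most. Its leading probe set (1427035_at) was at 8.87, 8.88, 9.08 and 8.90 in wild-type saline mice. Wild-type values 7 h after LPS were 12.00, 12.06 and 11.88, and those at 22 h were 12.04, 11.70 and 12.08. All LPS values lay above all saline values. The rise was 8.26-fold at 7 h (3.05 log2 units, standard error 0.10, limma adjusted p = 5.93e-12) and 8.05-fold at 22 h (3.01, adjusted p = 1.17e-11). Its other probe set (1425649_at) rose by less, 2.07-fold at 7 h and by 1.00 log2 units at 22 h, from signals between 9.45 and 9.63 to signals between 10.36 and 10.68. In the saline mice that probe set was the brighter, so the leading one led only through its LPS values. The size of the *Slc39a14* rise thus depends on the probe set, while its direction does not.

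*Slc39a8* (ZIP8), an importer of zinc and manganese, rose about as much by either of its probe sets. By the leading one (1416832_at) the wild-type saline values were 10.26, 10.89, 10.85 and 10.77, those at 7 h 11.81, 11.68 and 11.79, and those at 22 h 12.02, 11.28 and 12.11. The groups did not overlap, though replicate 2 at 22 h, the array that stood apart, was the lowest of the wild-type LPS mice. The rise was 2.10-fold at 7 h (1.07 log2 units, standard error 0.19, limma adjusted p = 3.16e-04) and 2.17-fold at 22 h (1.12, adjusted p = 2.21e-04). By the other probe set (1448482_at) it was 2.06-fold and 2.23-fold.

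The exporters moved little. *Slc30a1* (ZnT1), which exports zinc across the plasma membrane and is a known Mtf1 target, was in wild-type mice at 8.63 ± 0.09 (SD, n = 4) after saline, 8.66 ± 0.04 (SD, n = 3) at 7 h and 8.54 ± 0.14 (SD, n = 3) at 22 h. Its log2 differences from saline were 0.03 and -0.09, each with a standard error of 0.08, and neither was called (limma adjusted p = 0.832 and 0.446). *Slc30a4* (ZnT4), which loads zinc into vesicles and is mutated in the lethal milk mouse, was at 9.35, 9.45, 9.36 and 9.35 after saline. At 7 h after LPS it was at 9.70, 9.82 and 9.61, above all saline values, and this 1.26-fold rise was called (0.33 log2 units with a standard error of 0.07, limma adjusted p = 8.85e-04). At 22 h the values of 9.48, 9.55 and 9.67 gave a 1.14-fold rise (adjusted p = 0.0361), which was lost without saline replicate 1, 3 or 4 or without LPS replicate 3 (adjusted p between 0.0639 and 0.138).

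**Figure D3:**
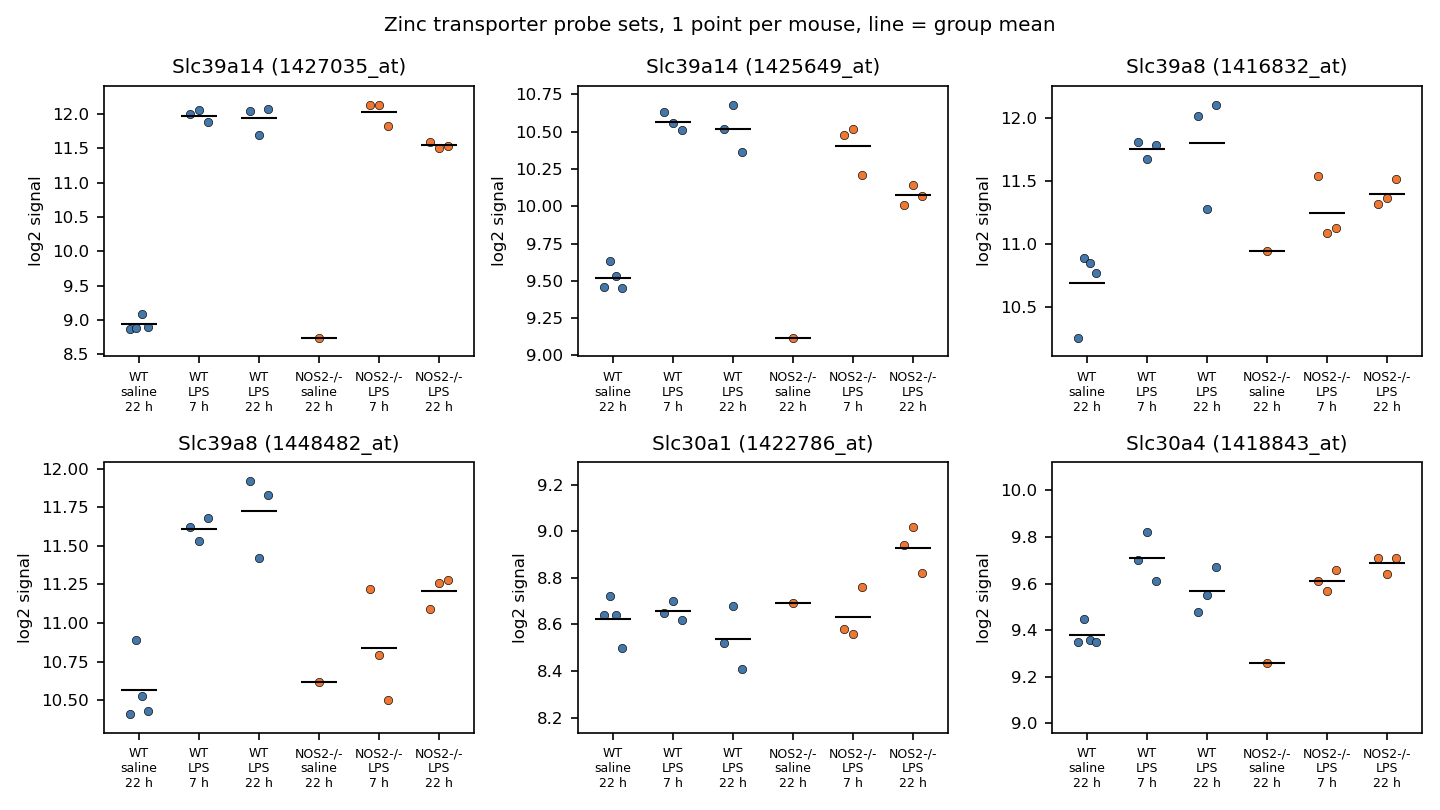
Log2 signal (y axis) of the 6 zinc transporter probe sets in each of the 17 mice, by group (x axis; blue, wild-type; orange, NOS2-/-), with lines at the group means and a y range of its own for each panel. *Slc39a14* by its leading probe set shows the highest rise after LPS, and the *Slc39a8* panels show lower LPS means in NOS2-/- than in wild-type mice, though the leading probe set overlaps at 22 h.

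In NOS2-/- lungs, *Mt1*, *Mt2* and *Slc39a14* were also called higher at both times. The comparison rests on 1 saline mouse, whose own spread is unknown and was taken to equal that of the other groups. At 7 h 6 of the 12 probe sets were called higher and 0 lower, where 22.5% of all probe sets were called, 8.78% higher and 13.7% lower. At 22 h 7 were called higher and 0 lower, against 27.6% of all probe sets, 11.6% higher and 16.0% lower. The median log2 fold change was 0.33 at 7 h and 0.62 at 22 h, beside 0.04 and 0.03 over all probe sets.

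*Mt2* was at 10.90 in the saline NOS2-/- mouse. After LPS it was at 14.69, 14.69 and 14.79 at 7 h and at 14.73, 14.74 and 14.73 at 22 h. These were rises of 14.2-fold and 14.3-fold (log2 fold changes 3.83 and 3.84, each with a standard error of 0.12, limma adjusted p = 2.16e-11 and 2.09e-11). *Mt1* rose from 11.28 to 14.32, 14.36 and 14.34 at 7 h and to 14.45, 14.41 and 14.43 at 22 h. The folds were 8.32 and 8.85, and by its other probe set 5.05 and 6.18. The LPS mice of each group lay close together, and all were far above the saline mouse.

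*Slc39a14* was at 8.74 in the saline NOS2-/- mouse, at 12.14, 12.13 and 11.83 at 7 h after LPS and at 11.60, 11.51 and 11.53 at 22 h. It rose 9.77-fold and 7.00-fold (limma adjusted p = 9.44e-10 and 5.63e-09). *Slc30a4* rose 1.27-fold at 7 h and 1.34-fold at 22 h (adjusted p = 0.0172 and 0.00418). *Mtf1* by its second probe set was called at 22 h only, at 1.58-fold (adjusted p = 0.00364).

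*Slc39a8* was not called in NOS2-/- mice. It was at 10.95 in the saline mouse, at 11.54, 11.09 and 11.13 at 7 h and at 11.32, 11.37 and 11.52 at 22 h by the leading probe set. All 6 LPS values were above the saline value, by log2 differences of 0.30 at 7 h and 0.46 at 22 h (standard error 0.28, limma adjusted p = 0.496 and 0.278). Against the 4 wild-type saline mice instead, the same LPS values gave 0.56 (adjusted p = 0.0276) and 0.72 (adjusted p = 0.00581). The call in NOS2-/- mice thus depends on which saline mice serve as the control. At 22 h it depends on the fit too, and was made in 3 of 25 alternatives, among them array weights and the groups fitted alone. By the second probe set the saline mouse was at 10.62 and the LPS values were 11.22, 10.79 and 10.50 at 7 h and 11.09, 11.26 and 11.28 at 22 h. Its differences were 0.21 (adjusted p = 0.577) and 0.58 (adjusted p = 0.089), and the latter was called in 6 of 24 alternatives.

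**Figure D4:**
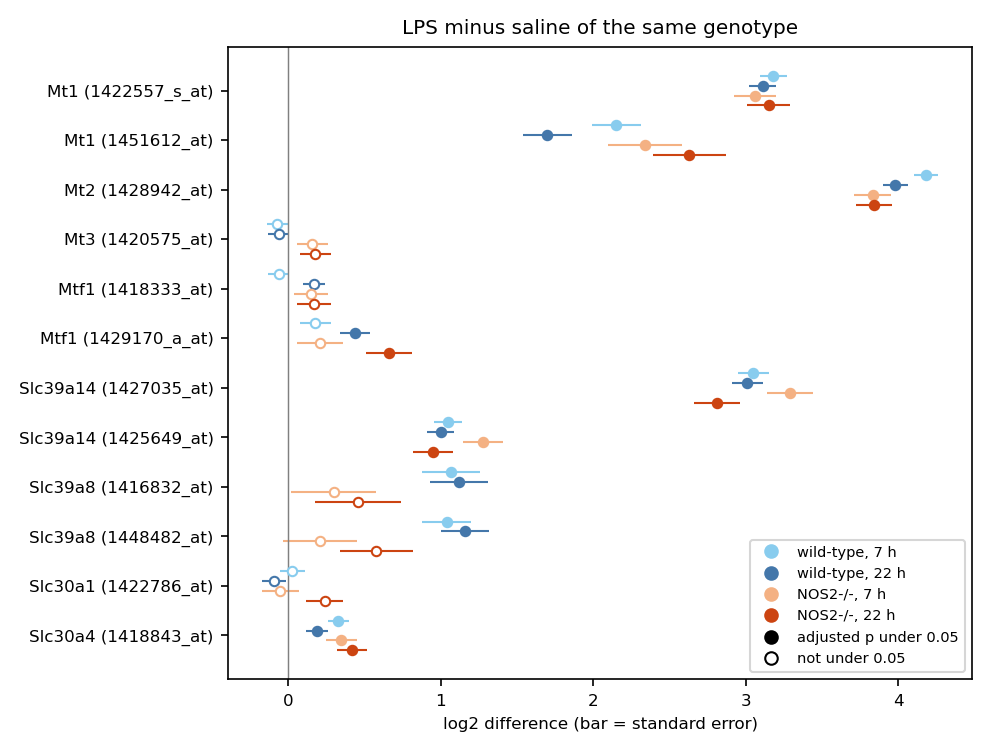
Log2 difference between LPS and saline mice of the same genotype (x axis) for the 12 probe sets (rows), with standard errors, at 7 h and 22 h in wild-type (blue) and NOS2-/- mice (orange). Filled points passed an adjusted p under 0.05. *Mt2* and the leading probe sets of *Mt1* and *Slc39a14* lie farthest to the right in both genotypes, and the *Slc39a8* points are filled in wild-type mice alone.

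The genotypes were then compared directly after LPS. These differences use no saline mouse, though the wild-type saline mice still enter the estimate of spread behind the p values. At 7 h 1 of the 12 probe sets was called, where 2.01% of all probe sets were (0.526% higher, 1.48% lower). It was the second probe set of *Slc39a8*, at 11.62, 11.53 and 11.68 in wild-type mice and 11.22, 10.79 and 10.50 in NOS2-/- mice. The groups did not overlap, and the gene was 1.71-fold lower in NOS2-/- mice (log2 difference -0.77, standard error 0.17, limma adjusted p = 0.0396). The leading probe set gave -0.51 (standard error 0.20, adjusted p = 0.154). The call was lost without wild-type saline replicate 1, without any 1 of the wild-type mice at 7 h, without NOS2-/- replicate 2 or 3 at 7 h, or without any 1 of the NOS2-/- mice at 22 h. Without wild-type replicate 2 at 22 h, 3 probe sets were called, among them both of *Slc39a8*.

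At 22 h 7 of the 12 were called, 5 higher and 2 lower in NOS2-/- mice, where 16.4% of all probe sets were called, 9.63% higher and 6.81% lower. Those higher were the second probe sets of *Mt1* and *Mtf1* and the probe sets of *Mt2*, *Mt3* and *Slc30a1*. Both probe sets of *Slc39a14* were lower. The folds were small, and the number of calls depended on the mice. It was 3 without NOS2-/- replicate 2 at 22 h and 4 without replicate 3. With the 2 groups fitted alone it was 1, the second probe set of *Mt1*.

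For *Mt1* by its second probe set, wild-type mice at 22 h had signals of 9.42, 9.03 and 9.13 and NOS2-/- mice 10.40, 10.06 and 9.92. The groups did not overlap, and the difference was 1.92-fold (log2 difference 0.94, standard error 0.17, limma adjusted p = 0.00163). It was called in all 24 alternatives in which it was measured. The leading probe set was higher in each of the 3 NOS2-/- mice but by 0.26 (standard error 0.10, adjusted p = 0.0836). *Mt2* was 1.23-fold higher (0.30, standard error 0.08, adjusted p = 0.0226), and quantile normalization gave 0.17 (adjusted p = 0.172, in a range from 0.0111 to 0.172 over 25 alternatives).

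*Slc30a1* was at 8.52, 8.68 and 8.41 in wild-type mice at 22 h after LPS and at 8.94, 9.02 and 8.82 in NOS2-/- mice. All NOS2-/- values lay above the wild-type values, by 1.31-fold (log2 difference 0.39, standard error 0.09, limma adjusted p = 0.0065), and the call held in 24 of 25 alternatives. *Mt3* was 1.18-fold higher (0.24, standard error 0.07, adjusted p = 0.0355), with values of 7.71, 7.52 and 7.73 against 7.95, 7.94 and 7.78. On every array *Mt3* lay below the median (group median percentiles from 30.0 to 36.7), and no detection call was used here. Without wild-type replicate 2 the *Mt3* difference was 0.17 (adjusted p = 0.0712, in a range from 0.0269 to 0.252 over 24 alternatives). For *Mtf1*, the second probe set was 1.32-fold higher in NOS2-/- mice (adjusted p = 0.0191) and the leading one 1.16-fold lower (log2 difference -0.22, adjusted p = 0.0771), so no direction can be given for the gene. The second probe set also lay below the median of every array.

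*Slc39a14* was 1.31-fold lower in NOS2-/- mice at 22 h by the leading probe set (log2 difference -0.39, standard error 0.11, limma adjusted p = 0.0212) and 1.37-fold lower by the other (-0.45, standard error 0.10, adjusted p = 0.00455). The wild-type and NOS2-/- values did not overlap for either. The leading call was lost without wild-type replicate 1 or 3 or NOS2-/- replicate 2 or 3 at 22 h (adjusted p between 0.0665 and 0.0739). By the other probe set the saline NOS2-/- mouse was already lower, at 9.12 against 9.45 to 9.63 in wild-type saline mice. The differences in the LPS response at 22 h, which use that mouse, were not called. They were -0.20 (limma adjusted p = 0.691) by the leading probe set and -0.05 (adjusted p = 0.951) by the other. *Slc39a8* was not called at 22 h, with differences of -0.40 (adjusted p = 0.206) and -0.51 (adjusted p = 0.0513). The second of these was called in 8 of 24 alternatives. Without replicate 2 of the wild-type mice the differences were -0.66 (adjusted p = 0.00405, in a range up to 0.417 over 25 alternatives) and -0.67 (adjusted p = 0.00477, in a range up to 0.172 over 24 alternatives).

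**Figure D5:**
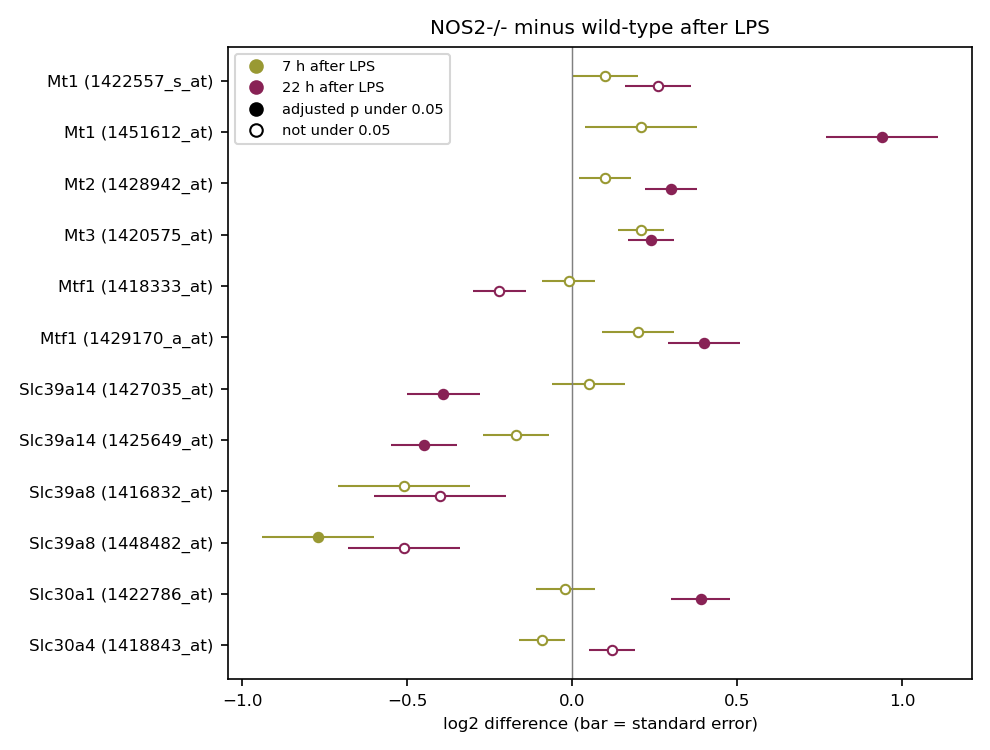
Log2 difference between NOS2-/- and wild-type mice (x axis) at 7 h and 22 h after LPS for the 12 probe sets (rows), with standard errors. Filled points passed an adjusted p under 0.05, which was 1 at 7 h and 7 at 22 h. Points right of 0 are higher in NOS2-/- mice, as for *Slc30a1* at 22 h, and both probe sets of *Slc39a14* lie left of 0 at 22 h.

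The 7 h and 22 h groups were then compared within each genotype. In wild-type mice 0 of the 12 probe sets were called by limma, where 10.8% of all probe sets were (3.15% higher, 7.68% lower), and 4 had an unadjusted p under 0.05. The second probe set of *Mt1* differed by -0.44 (standard error 0.17, adjusted p = 0.119). *Mtf1* was called, by 1 of its probe sets each time, without wild-type replicate 2 or 3 at 22 h. In NOS2-/- mice 3 were called, 1 higher and 2 lower, where 7.81% of all were (4.65% higher, 3.16% lower). *Slc39a14* was lower at 22 h than at 7 h by both probe sets, 1.40-fold (log2 difference -0.48, standard error 0.11, limma adjusted p = 0.0127) and 1.26-fold (-0.33, standard error 0.10, adjusted p = 0.0483). *Mtf1* by its second probe set was 1.36-fold higher at 22 h (0.45, standard error 0.11, adjusted p = 0.0178). None of the 3 was called without NOS2-/- replicate 1 at 7 h or replicate 2 or 3 at 22 h, and only that of *Mtf1* without NOS2-/- replicate 2 at 7 h. The weaker *Slc39a14* call, by the second probe set, held in 8 of 24 alternatives, and that by the leading one in 21 of 25.

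The difference of the responses between genotypes was tested itself. For the response at 22 h, 0 of the 12 probe sets were called by limma, where 4.70% of all were (2.52% higher, 2.18% lower), and 2 had an unadjusted p under 0.05. The second probe set of *Mt1* had a difference of 0.92 (standard error 0.29, adjusted p = 0.09) and *Slc39a8* -0.66 (standard error 0.34, adjusted p = 0.361) by its leading probe set. For the change from 7 h to 22 h, 0 were called, where 3.04% of all were (2.49% higher, 0.544% lower), and 4 had an unadjusted p under 0.05. *Slc30a1* had a difference of 0.41 (standard error 0.12, adjusted p = 0.0888) and *Slc39a14* -0.44 (standard error 0.15, adjusted p = 0.137). Without replicate 2 of the wild-type mice at 22 h, 3 probe sets passed the first test and 2 the second. In the first these were *Slc39a8* (-0.92, adjusted p = 0.0165, in a range up to 0.543 over 25 alternatives), *Mt1* by its second probe set and *Slc30a1*. In the second they were *Slc39a14* (-0.57, adjusted p = 0.0103, in a range up to 0.283 over 25 alternatives) and *Slc30a1*.

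Some cell markers moved with these results, and in whole lung more cells of a type and more RNA per cell cannot be told apart. The summed linear signal of 8 of 10 neutrophil markers was between 4415 and 5619 in the 5 saline mice and between 16863 and 33040 in the 12 LPS mice. That of 5 of 6 alveolar macrophage markers was between 9148 and 11196 in wild-type saline mice, between 11944 and 13888 in wild-type mice after LPS and between 9769 and 10859 in NOS2-/- mice after LPS. At 22 h after LPS 3 of these 5 were called lower in NOS2-/- than in wild-type mice and 0 higher. Of 6 measured of 7 monocyte and macrophage markers, 3 were lower and 0 higher in that comparison. Of all probe sets, 6.81% were lower and 9.63% higher there. The sums over the monocyte and macrophage markers overlapped, from 29969 to 34949 in wild-type and from 33582 to 34065 in NOS2-/- mice at 22 h after LPS. The endothelial sum of 7 markers was at least 25585 after saline and at most 21296 after LPS. Of these 7, 1 was called higher and 5 lower in wild-type mice at 22 h. Of 8 cardiac muscle markers, 7 were called lower and 0 higher in wild-type mice at 22 h. In that comparison 20.0% of all probe sets were lower and 12.8% higher. Between genotypes at 22 h after LPS, 6 of the 8 cardiac markers were higher and 0 lower in NOS2-/- mice. Their sum was between 6969 and 8329 in wild-type and between 11155 and 11486 in NOS2-/- mice at 22 h after LPS. Of 6 measured of 7 alveolar type 2 cell markers, 1 was higher and 5 lower in wild-type mice at 22 h. Their sums were between 67568 and 74745, against 88094 to 94570 after saline. Of 4 club cell markers, 2 were lower and 0 higher in wild-type mice at 22 h. Between genotypes at 22 h after LPS, 2 of these 4 were higher and 0 lower in NOS2-/- mice. The part of these cells in the zinc gene results was not tested.

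Other genes of zinc transport were followed as well. Of 6 measured Slc30 exporters other than the members, 2 were called higher and 0 lower in wild-type mice at 22 h, where 12.8% of all probe sets were higher and 20.0% lower. They were *Slc30a7*, which supplies zinc to the secretory pathway (1.40-fold, limma adjusted p = 0.00177), and *Slc30a2* (1.22-fold, adjusted p = 0.0378). Of 8 other Slc39 importers, 1 was higher and 1 lower. *Slc39a7*, which releases zinc from the endoplasmic reticulum, rose 1.22-fold (adjusted p = 0.0319), and *Slc39a13*, of the Golgi, was 1.35-fold lower (adjusted p = 1.73e-04). *Slc39a13* was also lower after LPS in NOS2-/- mice, 1.26-fold at 7 h and 1.25-fold at 22 h (limma adjusted p = 0.0363 and 0.0348). With each array left out in turn, *Slc30a2* was called in 12 of 17 fits and *Slc39a7* in 14 of 17. The NOS2-/- calls of *Slc39a13*, which rest on the single saline mouse, were made in 12 of 16 fits at 7 h and 14 of 16 at 22 h. The median log2 fold change at 22 h in wild-type mice was -0.06 over the exporters and 0.08 over the importers.

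Between genotypes at 22 h after LPS 16.4% of all probe sets were called, and the importers held 1 call in each direction. *Slc39a1*, an importer of the plasma membrane, was at 9.31 ± 0.45 (SD, n = 3) in wild-type and 10.48 ± 0.16 (SD, n = 3) in NOS2-/- mice, a 2.25-fold difference (log2 difference 1.17, standard error 0.23, limma adjusted p = 0.00296). The single saline NOS2-/- mouse was at 9.87 and the wild-type saline mice at 9.31 ± 0.41 (SD, n = 4). *Slc39a9* was 1.34-fold lower in NOS2-/- mice (adjusted p = 0.0186), a call made in 13 of 17 fits with 1 array left out. Of the exporters, *Slc30a7* was 1.29-fold lower (log2 difference -0.37, standard error 0.11, adjusted p = 0.0325), in 12 of 17 such fits.

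Copper genes were followed because metallothioneins bind copper too. Of 11 measured, 1 was higher and 4 lower in wild-type mice at 22 h, beside 12.8% and 20.0% of all probe sets. Those lower were *Ccs*, the copper chaperone of superoxide dismutase (1.49-fold, limma adjusted p = 1.94e-05), *Atp7a*, a copper-transporting ATPase (1.51-fold, adjusted p = 0.0435), *Sco2*, which brings copper to cytochrome oxidase (1.29-fold, adjusted p = 0.00387), and *Commd1* (1.21-fold, adjusted p = 0.0265). The 1 higher was *Atox1*, the chaperone that delivers copper to Atp7a (1.17-fold, adjusted p = 0.0455), named after its value was seen. *Atp7a* was at 9.94 ± 0.08 (SD, n = 4) after saline and at 9.74, 8.53 and 9.78 at 22 h after LPS, the lowest being the array that stood apart. Without that array its log2 difference was -0.18 and was not called (adjusted p = 0.0743). With each array left out in turn, *Atp7a* was called in 3 of 17 fits, *Atox1* in 6 and *Commd1* in 13. *Slc31a2*, a copper transporter of vesicles, was 1.57-fold lower in NOS2-/- than in wild-type mice at 22 h (adjusted p = 0.00232).

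Genes of the signals known to act on metallothionein genes were followed too. Of 14, 8 were higher and 2 lower in wild-type mice at 22 h, where 12.8% of all probe sets were higher and 20.0% lower. In NOS2-/- mice at 22 h 11 were higher and 0 lower, beside 11.6% and 16.0% of all probe sets. *Il6*, the cytokine gene, was at 6.19 ± 0.30 (SD, n = 4) in wild-type saline mice and 6.13 in the saline NOS2-/- mouse, below the array medians, and no detection call was used here. At 22 h after LPS it was called higher in both genotypes, at 9.90 ± 0.43 (SD, n = 3) in wild-type and 11.37 ± 0.69 (SD, n = 3) in NOS2-/- mice. It was 2.77-fold higher in NOS2-/- mice when the LPS groups were compared (limma adjusted p = 0.0154, and 0.0884 without NOS2-/- replicate 1). The difference of its responses was not called (1.53 log2 units, standard error 0.64, adjusted p = 0.235). *Socs3*, a feedback inhibitor of cytokine signals, rose 7.00-fold in wild-type mice (adjusted p = 3.59e-12) and 9.62-fold in NOS2-/- mice (adjusted p = 1.98e-10). *Hmox1*, the gene of the haem-degrading enzyme heme oxygenase, rose 3.44-fold (adjusted p = 7.03e-07) and 2.26-fold (adjusted p = 0.00268). *Fkbp5*, a target of glucocorticoids, rose 4.67-fold and 8.42-fold, and this difference in response was called (log2 difference 0.85, standard error 0.15, adjusted p = 0.00423). *Per1*, a clock gene that glucocorticoids also induce, differed in response by 1.76 (adjusted p = 4.52e-04). Both differences in response use the single saline NOS2-/- mouse. *Per1* was at 10.26 in that mouse and at 11.13 ± 0.29 (SD, n = 4) in wild-type saline mice. It was also 1.85-fold higher in NOS2-/- than in wild-type mice at 22 h after LPS (12.27 ± 0.07 against 11.38 ± 0.13, SD, n = 3 each, limma adjusted p = 4.47e-04). That difference of means uses no saline mouse. *Fkbp5* was at 9.06 in that mouse and at 9.90 ± 0.10 (SD, n = 4) in wild-type saline mice, while the means 22 h after LPS were 12.13 and 12.12. The 2 lower in wild-type mice, named after their values were seen, were *Nr3c1*, the glucocorticoid receptor gene (1.74-fold, adjusted p = 2.82e-06), and *Il6st*, a receptor chain shared by cytokines of the IL-6 family (1.40-fold, adjusted p = 8.18e-04). *S100a8* and *S100a9*, whose products withhold zinc from microbes, rose 10.4-fold and 15.1-fold in wild-type mice at 22 h and 5.73-fold and 8.67-fold in NOS2-/- mice. Neither difference of their responses was called (adjusted p = 0.0599 and 0.0564). Both use the single saline NOS2-/- mouse. Its summed linear signal of the 2 genes was 4757, against 2183 to 3519 in wild-type saline mice. At 22 h after LPS the sums were 31071 to 33411 in wild-type and 31370 to 33425 in NOS2-/- mice, and neither gene was called between genotypes.

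Patterns over the 17 mice were compared by the root mean square difference in log2 units. The wild-type saline mean was first subtracted from each gene. The closest genes were then found for each of the 3 members with the highest rises by their leading probe sets. For *Mt1* these were *Lcn2* (0.18), *Wfdc21* (0.24), *Socs3* (0.25), *Timp1* (0.26) and *Ackr3* (0.26). For *Mt2* they were *Il1r2* (0.26), *Cd274* (0.31), *Rsad2* (0.35), *Inhbb* (0.41) and *Ngp* (0.44). For *Slc39a14* they were *Zbp1* (0.21), *Cd14* (0.25), *Socs3* (0.25), *Iigp1* (0.26) and *Hpx* (0.26). *Socs3* was thus among the nearest to both *Mt1* and *Slc39a14*, with mean changes from wild-type saline at 7 h and 22 h of 3.05 and 2.81 for wild-type mice and 3.06 and 3.08 for NOS2-/- mice. The measure was given as a description, and all these genes shared the same arrays.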

How the data were processed

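Lung RNA of 17 mice was hybridised to Affymetrix MOE430A arrays. The authors made the deposited log2 signals with the affy package in R, but the sources used here give neither its version nor the summarisation method. The values were used as deposited. Array medians lay between 8.46 and 8.55. Of 22690 probe sets, 64 controls were left out. Gene names came from the array annotation, updated by gene ID through RefSeq (GRCm38.p6), and 20380 probe sets named 1 gene. All arrays were fitted in limma 3.58.1 (R 4.3.3) with 1 mean per group and empirical Bayes moderation (prior degrees of freedom 3.75). P values were adjusted by Benjamini-Hochberg over 22626 probe sets. The fit was tested on simulated data. The number of arrays, not a depth, limits the precision. Each array is 1 mouse, so p values measure the spread between mice. The NOS2-/- saline group has 1 mouse and adds no spread. P values that use it rest on the spread within the other groups. The members, lists and tests were chosen with earlier results of these data known. All member probe sets are named, and of each other list up to 4 called genes with the largest change, with a gene read by its brightest probe set. Marker genes of cell types stand outside that rule. Alternatives were quantile normalization, median centring, groups fitted alone, a filter that kept probe sets with a mean above the 40th percentile, a trended robust prior, each array left out (for the other lists' genes, a choice made after seeing the data), a replicate block, array weights, an adjusted p under 0.01, 1 probe set per gene and wild-type saline as the NOS2-/- control.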

Additional observations from a re-analysis of the deposited data

Results flagged for a closer look

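In the 4 wild-type saline mice, 1 value stood apart from the other 3 for 2 of the members. For *Slc39a14* (leading probe set) the values were 8.87, 8.88, 9.08 and 8.90, and the gap between the highest and its neighbour was 0.88 of the group's range. For *Slc30a4* the values were 9.35, 9.45, 9.36 and 9.35, and the gap was 0.85 of the range. Chance flags about 1 in 20 groups by this measure. The 22 h call of *Slc30a4* in wild-type mice (0.19 log2 units, limma adjusted p = 0.0361) was lost without saline replicate 1, 3 or 4.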

How the results depend on the processing

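The rises of *Mt1*, *Mt2* and *Slc39a14* after LPS were called by every probe set in both genotypes under every alternative in which they were measured. Other counts of called probe sets moved. With 1 probe set per gene (8 in all), the counts were 5 and 5 in the wild-type responses at 7 h and 22 h (8 and 9 of 12 as reported), 4 in the NOS2-/- response at 22 h (from 7), 1 for NOS2-/- mice at 22 h against 7 h (from 3), 0 and 4 for NOS2-/- against wild-type mice at 7 h and 22 h (from 1 and 7), and 7 for the F test (from 11). With array weights, whose fit stopped before it converged, they were 12 in the NOS2-/- response at 22 h, 5 for NOS2-/- mice at 22 h against 7 h, 5 for the genotypes at 7 h, 4 for the genotype difference in the LPS response and 2 for that in the change from 7 h to 22 h (both from 0). At an adjusted p under 0.01 they were 0 for NOS2-/- mice at 22 h against 7 h, and 0 and 3 for the genotypes at 7 h and 22 h. With the groups fitted alone they were 3 and 1 for the genotypes at 7 h and 22 h. Quantile normalization gave 1 for the genotype difference in the change from 7 h to 22 h. With wild-type saline mice as the control, 7 passed for the genotype difference in the LPS response, and *Mt2* changed sign there, from -0.14 to 0.30 (adjusted p = 0.0226). The control of that contrast is then the same in both arms and cancels. It thus equals the direct comparison of the genotypes at 22 h after LPS and is no test of a difference in response. The cause of the other changes was not tested.

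With each array left out in turn, the counts ranged from 8 to 8 and 8 to 9 in the wild-type responses at 7 h and 22 h, 6 to 6 and 7 to 8 in the NOS2-/- responses, 0 to 1 and 0 to 4 for 22 h against 7 h in wild-type and NOS2-/- mice, 0 to 3 and 3 to 8 for the genotypes at 7 h and 22 h, 0 to 3 and 0 to 2 for the differences in response and in change, and 9 to 12 for the F test. The replicate block gave 0 for the genotypes at 7 h. The mice share only a number, since same-numbered mice are different animals and their deviations correlated between -0.38 and 0.36 over 30 pairs, and the block changed no other count by more than 1.5 times. Of single values, 19 calls were lost and 47 gained over the other alternatives, and 46 lost and 22 gained when 1 array was left out.

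The LPS groups held 3 mice each, and the NOS2-/- responses rest on 1 saline mouse, whose array stood apart.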
